A study of Homo sapiens with 24 samples.

Results

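Transcription of 9 lipid handling genes was followed after glucocorticoid treatment: ANGPTL4, ACSL1, ACSL3, CPT1A, LPIN1, LPIN2, PLIN2, PNPLA2 and PPARD. They were picked by name, with earlier results of these data known, and each matched 1 of the 61533 genes in the count table. The cells were U2OS, a human osteosarcoma line with very little glucocorticoid receptor (GR) of its own. Stably integrated, CMV-driven GR with a C-terminal HaloTag was wild type in 1 line (wt GR), carried the separation-of-function mutation K492A in another (SoF GR), and carried the control mutation R470A in the third (Ctrl GR). Per the study, K492A weakens RNA binding strongly and DNA binding to a lesser degree, whereas R470A weakens DNA binding and spares RNA binding. SoF against wt is therefore not a contrast in RNA binding alone, and Ctrl serves as its comparator. In 4sU-seq, RNA made while cells take up 4-thiouridine is biotinylated, captured and sequenced, so that counts follow recent synthesis rather than the whole RNA pool. All cells were kept in charcoal-stripped serum and received 200 µM 4-thiouridine for 1 h. In each line the synthetic glucocorticoid dexamethasone had been added at 100 nM for 1, 2 or 3 h, with 0.01% ethanol as the untreated state (0 h), and 2 libraries represented each of the 12 groups. Each line was a puromycin-selected pool, sorted by HaloTag fluorescence for similar nuclear GR, so construct and pool cannot be told apart. No label says that the 2 libraries of a group came from separate cultures, so p-values measure the spread between these libraries, which may be technical.

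Glucocorticoids are known to mobilise and redistribute lipid in liver, muscle and adipose tissue. Long-chain fatty acids are activated by acyl-CoA synthetases (ACSL1, ACSL3) and then either enter mitochondria through carnitine palmitoyltransferase (CPT1A) or are built into triglyceride, for which the lipins (LPIN1, LPIN2) remove the phosphate from phosphatidic acid. Triglyceride is stored in droplets coated by perilipins (PLIN2) and is released by adipose triglyceride lipase (PNPLA2). ANGPTL4 is a secreted inhibitor of lipoprotein lipase and a textbook glucocorticoid target in liver and fat, and PPARD is a nuclear receptor for fatty acids.

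The 24 libraries held 8106036 to 15820806 counts each. Levels are given as CPM, read counts scaled to a common library total. NR3C1, which encodes GR and here counts the transgene as well, was at 552 and 824 CPM in the wt 0 h libraries, 2830 and 2430 CPM in SoF and 3200 and 3430 CPM in Ctrl. Relative to wt, its level at 0 h was 3.82-fold in SoF and 4.82-fold in Ctrl (edgeR, adjusted p = 4.57e-05 and 4.67e-06). These values are RNA, whereas the study matched the lines by nuclear GR protein. Relative to 0 h, NR3C1 was 2.11-fold, 2.21-fold and 2-fold at 1 h in wt, SoF and Ctrl (edgeR adjusted p = 0.0307, 0.0141 and 0.134). At 3 h it was 0.509-fold, 0.427-fold and 0.511-fold (adjusted p of 0.00347 or smaller). The part of NR3C1 in the comparisons below was not tested. FKBP5, a classical GR target, rose 8.64-fold in wt, 12.8-fold in SoF and 5.23-fold in Ctrl by 3 h (adjusted p of 2.58e-07 or smaller in all 3 lines). Of 9 osteoblast and mesenchymal markers, 6 averaged at least 1 CPM, whereas COL1A2, SP7 and BGLAP averaged 0.257, 0.0479 and 0.859 CPM. The 9 summed to 1120 to 2360 CPM per library, and VIM (mean 664 CPM) and COL1A1 (561 CPM) were the largest. Of 8 adipocyte markers, LIPE, LPL and PPARG averaged at least 1 CPM (sum of the 8, 17.3 to 38.5 CPM). The others, ADIPOQ, LEP, FABP4, PLIN1 and CIDEC, reached at most 0.484 CPM in any library. The epithelial markers KRT8 and KRT18 were also present (sum of 4 markers, 282 to 636 CPM). Among 7 hepatocyte markers, SERPINA1 alone averaged at least 1 CPM (10.7 to 83.8 CPM). ACTA1 alone did among 6 muscle markers (0.236 to 2.49 CPM), and none did among 5 leukocyte markers.

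PLIN2, the droplet coat protein, carried the clearest response. Its newly made RNA rose 1.78-fold in wt GR and 2.71-fold in SoF GR cells by 3 h. ACSL1 rose 1.45-fold in SoF GR cells, and its 1.2-fold and 1.21-fold values in wt and Ctrl did not pass the test. The lipins did not pass the test at any time in any line, and ANGPTL4 was almost silent. ANGPTL4 had too few reads for the low-count filter, so 8 of the 9 genes were tested, each alongside all 23651 genes that passed. Called means an adjusted p below 0.05. After 1 h no lipid gene was called in any line by edgeR or DESeq2, while 0.156%, 0.165% and 0.0465% of all genes were called. The unadjusted p was below 0.05 for 1, 1 and 0 of the 8 genes in wt, SoF and Ctrl. Of all 23651 genes, 2602, 1645 and 423 were below that value. At 2 h, 1 of 8 was called in wt, 1 in SoF and 0 in Ctrl (0 by DESeq2), against 4.6%, 5.68% and 7.95% of all genes. In Ctrl, 2 of the 8 were at an unadjusted p below 0.05, as were 5412 of all genes. At 3 h, 1 of 8 was called in wt, 2 in SoF and 0 in Ctrl (0 by DESeq2). In Ctrl, 1 of the 8 was at an unadjusted p below 0.05, as were 6706 of all genes. The share of all genes called at 3 h was 10.7%, 19.3% and 14.2% in wt, SoF and Ctrl. Every call was an increase, and 0 to 2 calls among 8 genes are close to these background shares. At 3 h the 8 genes had median log2 fold changes of 0.26, 0.39 and 0.21 in wt, SoF and Ctrl, compared with -0.03, -0.03 and -0.02 over all genes. The genes were chosen with earlier results of these data known, so these medians only describe them.

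**Figure D1:**
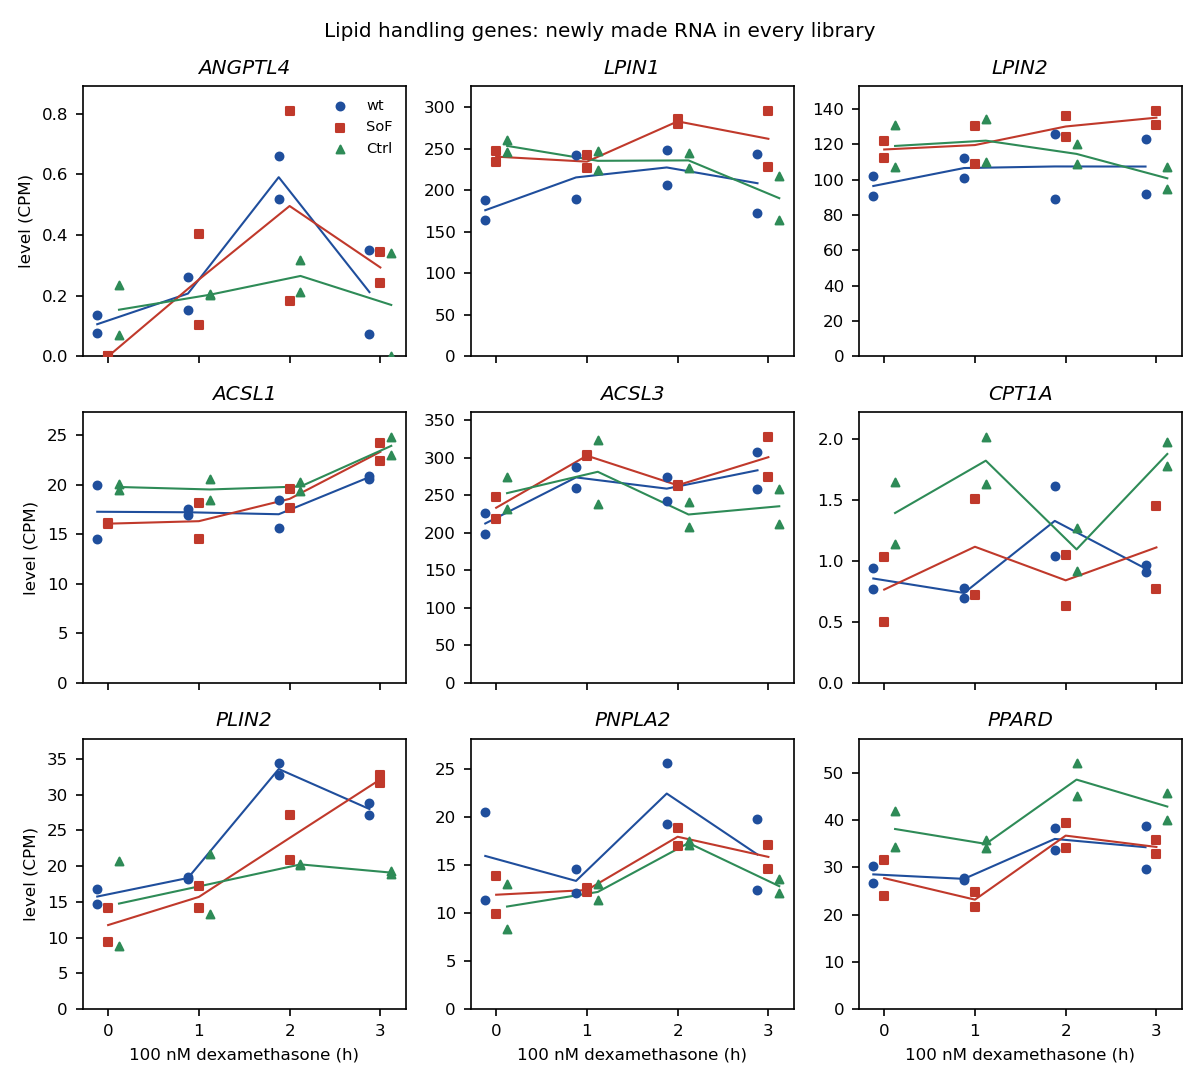
Level of each of the 9 genes (y axis, CPM from 0) against hours of 100 nM dexamethasone (x axis), with 1 point per library and lines through the means of 2 libraries, for wt (circles), SoF (squares) and Ctrl (triangles, shifted slightly to the right). PLIN2 climbs to 27.1 to 34.4 CPM in wt and 20.8 to 32.7 CPM in SoF at 2 and 3 h and stays between 18.9 and 20.3 CPM in Ctrl, and ANGPTL4 stays below 1 CPM throughout.

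PLIN2 (ENSG00000147872.10, hg38 chr9:19108375-19149290, minus strand) protects stored triglyceride from lipases. In wt GR cells it was at 16.8 and 14.7 CPM at 0 h, 18.5 and 18.2 CPM at 1 h, 32.8 and 34.4 CPM at 2 h, and 28.9 and 27.1 CPM at 3 h. In SoF GR cells the libraries held 14.2 and 9.32 CPM, 17.2 and 14.2 CPM, 27.1 and 20.8 CPM, and 31.6 and 32.7 CPM at the same times. In both lines every 2 h and 3 h library lay above every 0 h and 1 h library. In Ctrl GR cells PLIN2 was at 20.7 and 8.83 CPM at 0 h, 21.7 and 13.3 CPM at 1 h, 20.3 and 20.2 CPM at 2 h, and 19.3 and 18.9 CPM at 3 h. There 0 h replicate 1 lay above every 2 h and 3 h library and 0 h replicate 2 below every other library, so treated and untreated libraries overlapped.

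Relative to 0 h, PLIN2 rose by a log2 fold change of 1.09 (SE 0.26, edgeR adjusted p = 0.0179) at 2 h and 0.83 (SE 0.26, adjusted p = 0.0438) at 3 h in wt. In SoF it rose by 1.02 (SE 0.27, adjusted p = 0.0265) at 2 h and 1.44 (SE 0.27, adjusted p = 0.000677) at 3 h. In Ctrl the values were 0.42 (SE 0.27, adjusted p = 0.37) and 0.34 (SE 0.27, adjusted p = 0.439). The SoF increase at 3 h kept its call without any single library of the comparison (1.18 to 1.79), whereas the wt increase at 3 h lost it without any of them (0.76 to 0.92). The wt increase at 2 h lost its call without either 0 h library (1.16 without replicate 1, 1.00 without replicate 2) or without 2 h replicate 2 (1.04), and the SoF increase at 2 h without 0 h replicate 2 (0.75) or 2 h replicate 1 (0.82). The Ctrl result depended on which 0 h library was kept. Without 0 h replicate 1 the PLIN2 values in Ctrl were 1.19 at 2 h and 1.13 at 3 h, and without 0 h replicate 2 they were -0.05 and -0.12. No label marks either library as the odd one, and replicate 2 held the fewest counts of the series (8106036).

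**Figure D2:**
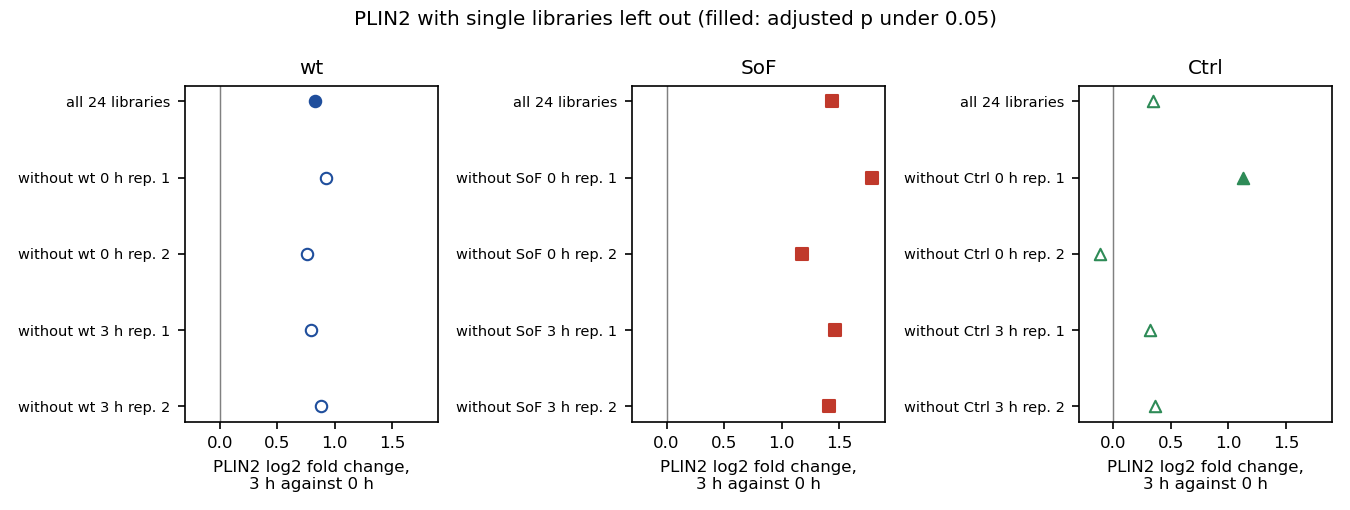
PLIN2 log2 fold change at 3 h against 0 h (x axis) in wt, SoF and Ctrl, with all 24 libraries (top row) and with each library of the comparison left out (other rows, rep. for replicate). Filled symbols have an adjusted p below 0.05, and with all libraries wt and SoF are filled. In Ctrl the value is 0.34 with all libraries, 1.13 without 0 h replicate 1 and -0.12 without 0 h replicate 2.

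PNPLA2, the lipase that starts the breakdown of stored triglyceride, had its highest group mean at 2 h in each line. In wt it was at 20.5 and 11.4 CPM at 0 h, 14.6 and 12.1 CPM at 1 h, 25.6 and 19.3 CPM at 2 h, and 12.4 and 19.8 CPM at 3 h. In SoF it was at 13.9 and 9.92 CPM at 0 h, 12.6 and 12.2 CPM at 1 h, 18.9 and 17.0 CPM at 2 h, and 14.6 and 17.1 CPM at 3 h. In Ctrl it was at 13.0 and 8.36 CPM at 0 h, 11.4 and 13.0 CPM at 1 h, 17.1 and 17.5 CPM at 2 h, and 12.1 and 13.5 CPM at 3 h. The 0 h and 2 h libraries did not overlap in SoF and Ctrl but did in wt. No line passed the test by itself at 2 h: the log2 fold changes were 0.49 (SE 0.25), 0.58 (SE 0.26) and 0.68 (SE 0.27), with adjusted p of 0.308, 0.211 and 0.125 in wt, SoF and Ctrl. With single libraries left out, the PNPLA2 value in Ctrl at 2 h ran from 0.4 to 1.05, the latter without Ctrl 0 h replicate 1. An antisense transcript covers 10.5% of the PNPLA2 exon bases, and the use of strand in counting is known only from the title of the table.

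ANGPTL4 (ENSG00000167772.12, hg38 chr19:8363289-8374370, plus strand) gave at most 10 reads in any library. Its reads numbered 2 and 1 at 0 h, 3 and 2 at 1 h, 9 and 6 at 2 h, and 1 and 5 at 3 h in wt. In SoF they numbered 0 and 0, 4 and 1, 10 and 2, and 3 and 4, and in Ctrl 1 and 2, 2 and 2, 3 and 3, and 4 and 0. The sum over the 2 libraries was highest at 2 h in each line (15, 12 and 6 reads in wt, SoF and Ctrl), yet the 2 SoF libraries at that time differed by 8 reads. Summed over the 3 lines, 6 reads at 0 h (0.0812 CPM, 95% exact Poisson interval 0.0298 to 0.177), 14 at 1 h (0.22 CPM, 0.12 to 0.368), 33 at 2 h (0.458 CPM, 0.315 to 0.643) and 17 at 3 h (0.228 CPM, 0.133 to 0.365) were counted. The 2 h interval lay above the 0 h interval, but these intervals cover counting error only. The 0 reads in SoF at 0 h allow a level of up to 0.128 CPM (3 reads over both libraries), and the exact Poisson 95% interval plotted for them ends at 0.157 CPM (3.69 reads). In a fit without the low-count filter, edgeR called the 2 h increase averaged over the 3 lines (adjusted p = 0.00111) and that in SoF (adjusted p = 0.0163). It did not call those in wt (0.188) and Ctrl (0.89), and the fitted fold changes against a group at 0 are no measure of size. DESeq2 gave no adjusted p for ANGPTL4 in these comparisons.

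**Figure D3:**
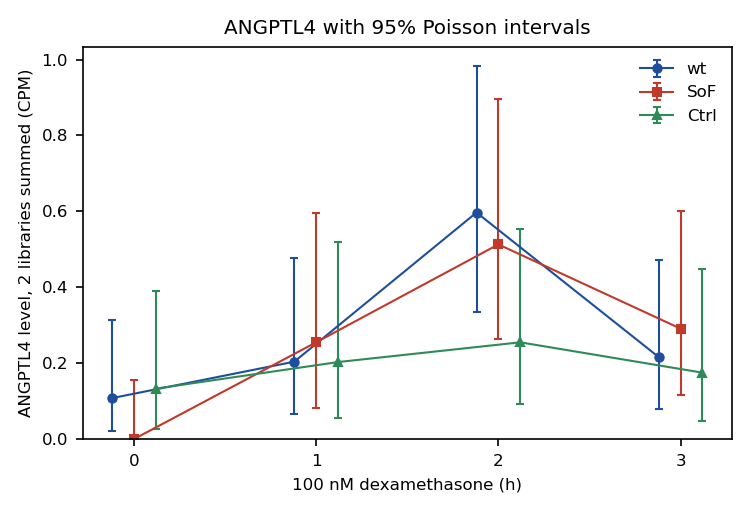
ANGPTL4 level over both libraries of a group (y axis, CPM) against hours of 100 nM dexamethasone (x axis) in wt, SoF and Ctrl, with bars for 95% exact Poisson intervals of the summed reads, which cover counting error only. The 2 h values rest on 15 reads in wt, 12 in SoF and 6 in Ctrl, and the interval of each overlaps that of the other lines.

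ACSL1 (ENSG00000151726.15, hg38 chr4:184755595-184826818, minus strand), which couples long-chain fatty acids to coenzyme A mainly in tissues that burn or store fat, rose late. In SoF it was at 16 and 16.1 CPM at 0 h, 18.1 and 14.5 CPM at 1 h, 17.6 and 19.5 CPM at 2 h, and 22.4 and 24.2 CPM at 3 h. Both 3 h libraries lay above the other 6, and the change was a log2 fold change of 0.54 (SE 0.17, edgeR adjusted p = 0.027). That call was lost without any of its 4 libraries (0.48 to 0.59). In wt, ACSL1 was at 14.5 and 20 CPM at 0 h and 20.9 and 20.6 CPM at 3 h, and in Ctrl at 19.4 and 20.1 CPM and 23.0 and 24.8 CPM. The 3 h libraries were the higher ones in these lines too, with log2 fold changes of 0.27 (SE 0.17) in each and adjusted p of 0.336 and 0.296.

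ACSL3, an acyl-CoA synthetase of the endoplasmic reticulum and of forming droplets, ranged from 198 to 308 CPM in wt, 219 to 328 CPM in SoF and 208 to 324 CPM in Ctrl. At 3 h its log2 fold changes in wt, SoF and Ctrl were 0.42, 0.37 and -0.10 (SE 0.16 each, adjusted p = 0.107, 0.117 and 0.727). CPT1A, the gatekeeper of mitochondrial fatty acid entry, had 5 to 22 reads per library and a mean level of 1.16 CPM, so SEs of 0.42 to 0.47 at 3 h left changes of about that size undetectable. Its log2 fold changes at 3 h were 0.12, 0.49 and 0.46 in wt, SoF and Ctrl, and none was called.

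LPIN1, whose protein is both an enzyme and a nuclear coregulator of PPAR target genes, did not pass the test in any comparison with 0 h. In wt the libraries held 164 and 188 CPM at 0 h and 244 and 173 CPM at 3 h, in SoF 247 and 234 CPM and 296 and 228 CPM, and in Ctrl 246 and 261 CPM and 217 and 164 CPM. Untreated and 3 h libraries overlapped in wt and SoF, and in Ctrl both 3 h libraries were the lower ones. In wt, SoF and Ctrl the log2 fold changes were 0.25, 0.12 and -0.42 (SE 0.18 each, adjusted p = 0.418, 0.662 and 0.12). LPIN2, its close relative, had values of 0.15, 0.20 and -0.24 (SE 0.17 each), and its levels spanned 88.8 to 139 CPM over all 24 libraries.

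PPARD (ENSG00000112033.14, hg38 chr6:35342558-35428191, plus strand) had its highest group mean at 2 h and its lowest at 1 h in each line. In SoF it was at 31.5 and 23.9 CPM at 0 h, 24.8 and 21.5 CPM at 1 h, 39.3 and 34.1 CPM at 2 h, and 32.8 and 35.8 CPM at 3 h. In wt it was at 30.3 and 26.7 CPM at 0 h, 27.3 and 27.8 CPM at 1 h, 33.7 and 38.3 CPM at 2 h, and 29.7 and 38.8 CPM at 3 h. In Ctrl it was at 42.0 and 34.2 CPM at 0 h, 35.8 and 34.1 CPM at 1 h, 45.1 and 52.0 CPM at 2 h, and 40.0 and 45.7 CPM at 3 h. The 2 h libraries lay above the 0 h libraries in all 3 lines, with log2 fold changes of 0.34, 0.40 and 0.35 (SE 0.17 each) in wt, SoF and Ctrl that were not called (adjusted p = 0.287, 0.182 and 0.216).

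Because several genes moved alike in the 3 lines, the lines were also averaged, a comparison chosen after the values were seen. At 0 h the difference between replicates 1 and 2 was partly shared by the lines (Pearson r of 0.39 to 0.57 over tested genes). Averaging the lines does not remove a shared deviation, and leaving out 1 library does not test it. At 1 h none of the 8 genes was called by edgeR or DESeq2, while 1.28% of all genes were called. An unadjusted p below 0.05 was found for 1 of the 8 and for 3332 of all 23651 genes. At 2 h, 3 were called, against 28.8% of all genes: PLIN2 (log2 fold change 0.84, SE 0.15, adjusted p = 0.000284), PNPLA2 (0.58, SE 0.15, adjusted p = 0.00582) and PPARD (0.36, SE 0.10, adjusted p = 0.00747), and each kept its call without any single library. At 3 h, 3 were called, against 40.3%: PLIN2 (0.87, SE 0.15, adjusted p = 0.000109), ACSL1 (0.36, SE 0.10, adjusted p = 0.00479) and PPARD (0.25, SE 0.10, adjusted p = 0.0485). PLIN2 and ACSL1 kept the call without any single library, and PPARD kept it in 5 of 12 such fits. PPARD also lost the 3 h call by DESeq2 (adjusted p = 0.0731), with DESeq2 size factors in edgeR (0.0572) and without the low-count filter (0.112). Averaged over the lines, PNPLA2 at 3 h (0.22, SE 0.15, adjusted p = 0.26), LPIN1 (-0.02, SE 0.10), LPIN2 (0.04, SE 0.10), ACSL3 (0.23, SE 0.09, adjusted p = 0.0568) and CPT1A (0.36, SE 0.26) were not called.

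The step from 1 h to 3 h compares dexamethasone-treated libraries with each other, which matters because the length of the ethanol exposure at 0 h is not stated. In SoF, 3 of 8 genes rose over this step, against 32.6% of all genes called: PLIN2 (log2 fold change 1.03, SE 0.27, edgeR adjusted p = 0.0056), PPARD (0.56, SE 0.17, adjusted p = 0.0159) and ACSL1 (0.52, SE 0.17, adjusted p = 0.0229). Without SoF 1 h replicate 2 none of the 3 was called, without SoF 3 h replicate 2 PLIN2 alone was, and without SoF 3 h replicate 1 ACSL1 was not (0.59, adjusted p = 0.0538). In wt and Ctrl no lipid gene was called by edgeR or DESeq2, against 16% and 16.9% of all genes. An unadjusted p below 0.05 was found for 1 and 0 of the 8, and for 7401 and 7396 of all 23651 genes. PLIN2 came closest in wt (0.61, SE 0.26, adjusted p = 0.113) and was at 0.13 (SE 0.27) in Ctrl. Averaged over the lines, the same 3 genes were called, PLIN2 at 0.59, PPARD at 0.39 and ACSL1 at 0.36, against 50.6% of all genes.

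The mutants were made to ask whether weaker RNA binding by GR changes the response, which needs a test of the difference between lines, with Ctrl as the comparator for weaker DNA binding. None of the 8 genes was called in any of the 3 such comparisons at 3 h by edgeR or DESeq2. Of all genes, 0.0127% were called in SoF minus Ctrl, 0% in SoF minus wt and 0% in Ctrl minus wt. At an unadjusted p below 0.05 there were 2, 0 and 2 of the 8 genes, against 671, 558 and 845 of all 23651 genes. PLIN2 had the largest of the 8 differences between SoF and Ctrl, a log2 value of 1.1 (SE 0.38, unadjusted p = 0.00833, adjusted p = 1). With single libraries left out this difference ran from 0.32, without Ctrl 0 h replicate 1, to 1.55. The PLIN2 difference for SoF minus wt was 0.61 (SE 0.37) and that for Ctrl minus wt -0.49 (SE 0.37). LPIN1 and ACSL3 had positive differences between SoF and Ctrl (0.54, SE 0.25, and 0.47, SE 0.23), with negative 3 h values in Ctrl for both, and their SoF minus wt differences were -0.12 and -0.05. ACSL1 differed by 0.27 (SE 0.24) between SoF and Ctrl and between SoF and wt. These comparisons share the SoF, Ctrl or wt libraries in pairs and are not independent of each other.

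**Figure D4:**
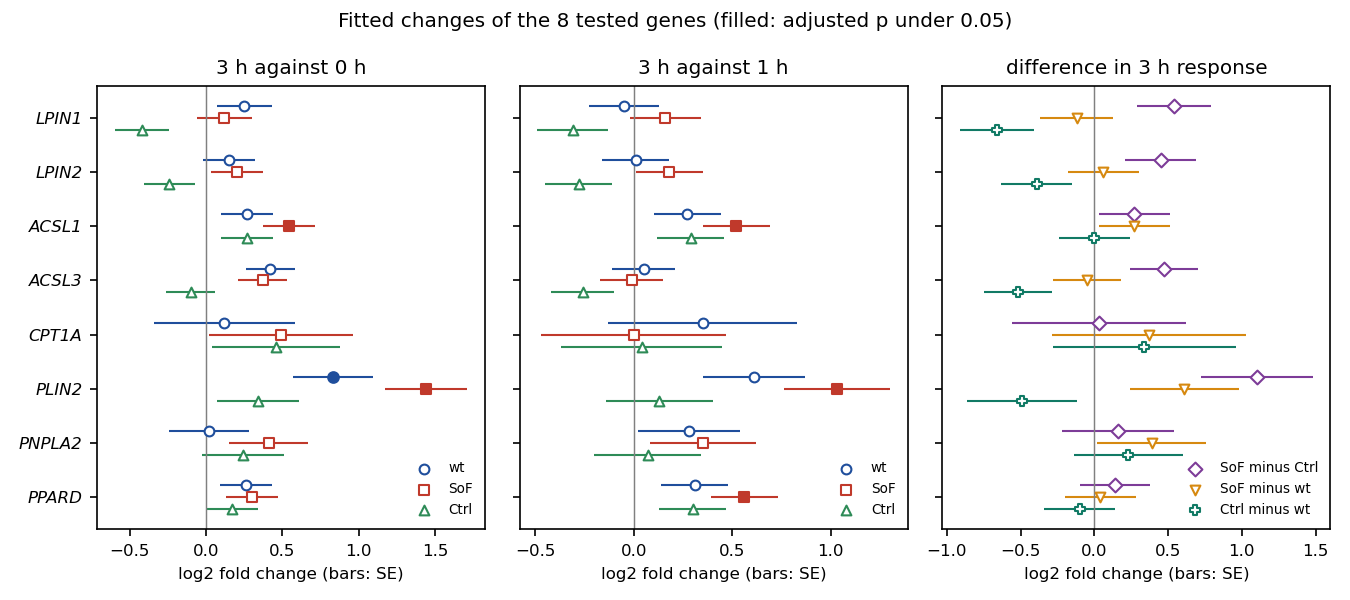
Fitted log2 fold changes (x axis, bars for SE) of the 8 tested genes (rows) at 3 h against 0 h, at 3 h against 1 h, and, as differences between lines, in the 3 h against 0 h response; filled symbols have an adjusted p below 0.05. PLIN2 is filled in wt and SoF at 3 h against 0 h, ACSL1 in SoF, and ACSL1, PLIN2 and PPARD in SoF at 3 h against 1 h, while no difference between lines is filled.

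The mutants were also compared with wt GR whatever the time. The fit that ignored time compared 8 libraries with 8. In it none of the 8 tested genes was called in SoF against wt or in Ctrl against wt (1 each by DESeq2). Of all 21122 genes, 8.02% and 4.77% were called. An unadjusted p below 0.05 was found for 2 and 3 of the 8 genes, and for 5308 and 3988 of all genes. In SoF against Ctrl 1 was called, against 3.61%: PPARD was lower in SoF (log2 difference -0.43, SE 0.12, edgeR adjusted p = 0.0437). PPARD ranged from 21.5 to 39.3 CPM in SoF (median 32.2), 26.7 to 38.8 CPM in wt (median 30) and 34.1 to 52.0 CPM in Ctrl (median 41), so the ranges overlapped. The call was lost in the 0 h libraries alone (-0.46, adjusted p = 0.468). CPT1A was at 0.922 to 2.02 CPM in Ctrl, 0.695 to 1.62 CPM in wt and 0.501 to 1.51 CPM in SoF, and its log2 difference between Ctrl and wt was 0.67 (SE 0.22, adjusted p = 0.0858). LPIN1 and LPIN2 had SoF against wt differences of 0.31 (SE 0.10, adjusted p = 0.0587) and 0.27 (SE 0.09, adjusted p = 0.0508), and both were called once a term for time was added (adjusted p = 0.0159 each). With that term CPT1A (0.65, adjusted p = 0.0407), PNPLA2 (-0.35, adjusted p = 0.0401) and PPARD (0.38, adjusted p = 0.000634) were called in Ctrl against wt. The 8.02% and 4.77% above belong to the fit without the term. The share of all genes called with it was not computed, so these calls have no background to be read against. At 3 h alone, a comparison added after the values were seen, none was called by edgeR or DESeq2 in any pair of lines. The share of all genes called was 0.207% in SoF against wt, 0.474% in Ctrl against wt and 0.668% in SoF against Ctrl. An unadjusted p below 0.05 was found for 0, 2 and 4 of the 8 genes, and for 1591, 2296 and 1871 of all 23651 genes. PLIN2 was then 0.75 higher in SoF than in Ctrl on the log2 scale (SE 0.26, adjusted p = 0.304), with 31.6 and 32.7 CPM against 19.3 and 18.9 CPM.

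Levels were also divided by the exon length of each gene, taken over all its annotated transcripts, so comparisons between genes are rough. On this scale LPIN1, ACSL3 and LPIN2 had the highest mean levels over the 24 libraries (19.4, 18.0 and 15.5 CPM per kb). PPARD followed at 7.72, PLIN2 at 4.17, PNPLA2 at 3.89 and ACSL1 at 2.94 CPM per kb. CPT1A at 0.176 and ANGPTL4 at 0.0993 CPM per kb were far below them. Over the 12 group means of log2 CPM, the lipins followed each other (Pearson r = 0.92 for LPIN1 and LPIN2), and so did PLIN2 and PNPLA2 (0.81), whereas ACSL1 and LPIN1 did not (-0.01). These 12 points share lines, times and library preparation, and the coefficients are descriptions. Among 19701 genes with a mean of at least 1 CPM, LPIN2 was the most similar to LPIN1 (r = 0.924), ahead of LINC01989 (0.898) and C5AR1 (0.867). ACSL1 was followed most closely by IRF8 (0.972), SH3BP2 (0.953) and CMIP (0.951). For ANGPTL4 they were NFKBIA (0.928), ABALON (0.912) and FAM217B (0.905), over group means that each rest on 0 to 15 ANGPTL4 reads.

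The DNA just upstream of the annotated starts was searched for the letters that GR and the PPARs are known to bind. RefSeq gave 16 start sites for the 9 genes, and the 250 bases before each were read on both strands. The GR hexamer TGTTCT, or its reverse complement AGAACA, occurred in 2 of the 16 windows (12.5%), compared with 12.4% of all 35116 RefSeq windows. It occurred once before the PPARD start, at 229 to 224 bases upstream, and 2 times before ACSL1 start 3 of 5, at 247 to 242 and 140 to 135 bases upstream. The full GR palindrome, in which AGAACA and TGTTCT stand 3 bases apart (0.00285% of all windows), and the PPAR repeat, in which AGGTCA occurs 2 times 1 base apart (0.0171%), had no match in the 16 windows, which says only that these letters are not in these stretches. The windows of PLIN2, as the gene with the clearest response, and of ACSL1 and PPARD, as the genes with a hexamer, follow from 5′ to 3′ on the gene's own strand in build GRCh38.p14, with hexamers in capitals. They lie at chr9:19127493-19127742 (minus strand), chr4:184812252-184812501 (minus strand) and chr6:35342308-35342557 (plus strand).
PLIN2: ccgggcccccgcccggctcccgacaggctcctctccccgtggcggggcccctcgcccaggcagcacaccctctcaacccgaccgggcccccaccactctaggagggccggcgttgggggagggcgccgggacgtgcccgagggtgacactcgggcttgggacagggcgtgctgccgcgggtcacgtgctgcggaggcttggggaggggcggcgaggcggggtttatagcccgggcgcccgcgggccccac
ACSL1 start 3: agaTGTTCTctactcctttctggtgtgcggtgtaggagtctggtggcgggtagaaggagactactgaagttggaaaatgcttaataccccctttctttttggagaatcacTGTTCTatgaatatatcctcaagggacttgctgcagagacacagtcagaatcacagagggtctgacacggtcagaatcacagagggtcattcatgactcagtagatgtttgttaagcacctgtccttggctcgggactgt
PPARD: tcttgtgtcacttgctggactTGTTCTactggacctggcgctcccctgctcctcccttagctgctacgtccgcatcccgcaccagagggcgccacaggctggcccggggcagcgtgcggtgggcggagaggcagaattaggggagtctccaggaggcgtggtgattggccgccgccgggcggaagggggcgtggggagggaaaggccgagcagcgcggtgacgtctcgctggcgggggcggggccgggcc
The PLIN2 window holds no hexamer, and the windows of the 9 genes ranged from 34.8% to 83.6% G and C.

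The wider lipid pathway was read from 7 lists with 112 other genes, of which 85 could be tested. At 3 h against 0 h, 8 rose and 1 fell in wt, 17 rose and 2 fell in SoF, and 18 rose and 1 fell in Ctrl, with median log2 fold changes of 0.13, 0.20 and 0.23. Rising genes made up 6.6%, 11.2% and 8.58% of all genes tested, and falling genes 4.12%, 8.11% and 5.6%. Counts moved with single libraries: in Ctrl, in place of 19 calls, 4 were made without 0 h replicate 2, 5 without 3 h replicate 2 and 12 without 3 h replicate 1. Without SoF 0 h replicate 2 there were 8 calls in place of 19, and in wt, in place of 9, there were 4 without 3 h replicate 2 and 5 without 0 h replicate 2. Among 12 tested genes of the droplet coat and of lipolysis, 1 rose in wt, 4 in SoF and 5 in Ctrl. Among 12 of triglyceride synthesis, 1, 4 and 1 rose. Among 11 PPARs and partner regulators, 2, 3 and 6 rose and 0, 1 and 1 fell. Of 24 tested genes of beta-oxidation, 2, 2 and 3 rose and 1, 1 and 0 fell. The lipoprotein lipase system had 6 tested genes, of which 0, 2 and 1 rose, while the carnitine shuttle (7 tested) and fatty acid uptake and activation (13 tested) had 1 rising gene in each line. No listed gene was called in a difference between lines in the 3 h response by edgeR, by DESeq2 or in any other fit tried (5 at an unadjusted p below 0.05 for SoF minus Ctrl, 2 for SoF minus wt and 5 for Ctrl minus wt).

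**Figure D5:**
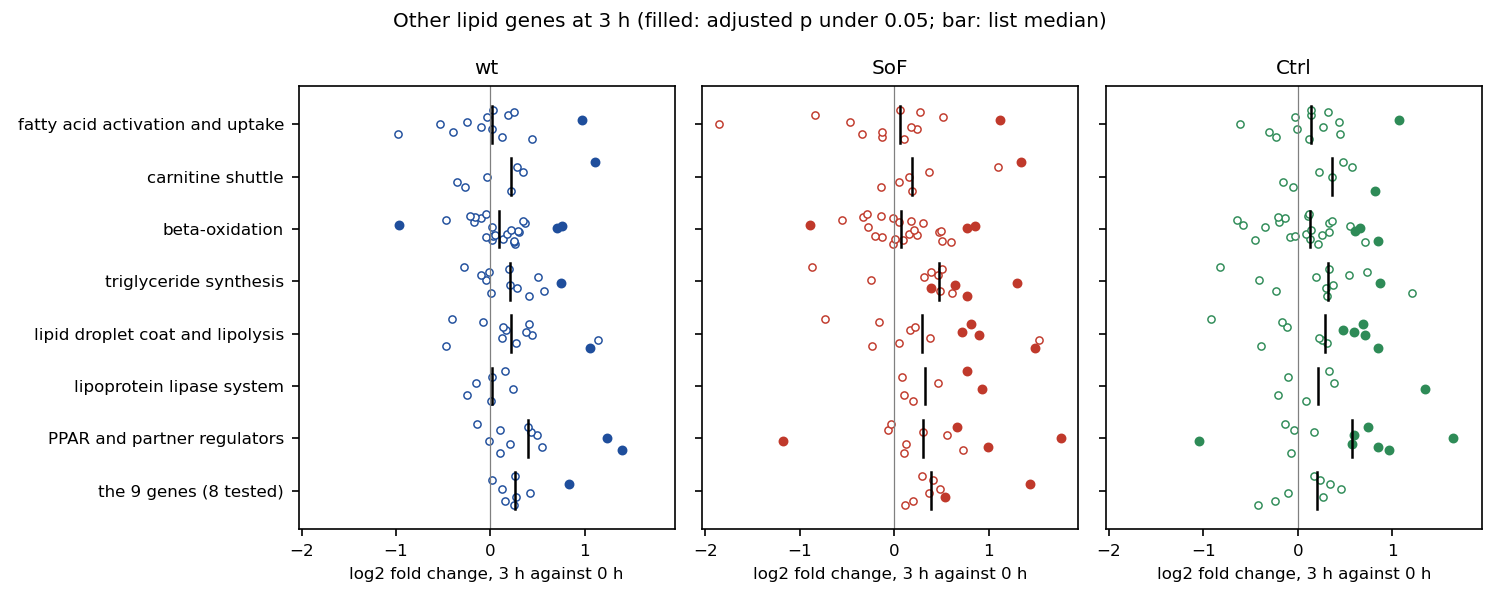
Log2 fold change at 3 h against 0 h (x axis) of every tested gene in 7 lists of lipid genes and of the 8 tested genes described above (rows), in wt, SoF and Ctrl; filled points have an adjusted p below 0.05 and black bars are list medians. Most points lie near 0, and the called genes are mostly increases, 8 of 9 in wt, 17 of 19 in SoF and 18 of 19 in Ctrl.

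Of these 85 genes, 5 were called higher at 3 h in each of the 3 lines and were chosen for description by that rule, compared with 4.2% of all genes tested and 0 of the 8 genes above. PLIN3, the droplet coat protein related to PLIN2, was at 23.5 and 31.2 CPM in wt, 29.0 and 18.1 CPM in SoF and 31.4 and 22.5 CPM in Ctrl at 0 h. At 3 h it was at 47.5 and 65.5, 66.3 and 67.2, and 46.3 and 51.4 CPM, so every 3 h library exceeded every 0 h library. Its log2 fold changes were 1.05, 1.49 and 0.85 (SE 0.20 each, edgeR adjusted p = 0.00141, 2.75e-05 and 0.00735), and it was called in Ctrl as well. PPARGC1B, a PPAR coactivator of oxidative genes, rose by 1.23 in wt, 1.77 in SoF and 1.64 in Ctrl at 3 h, although its levels at 2 h (3.08 to 7.02 CPM over the 6 libraries) lay below all 6 at 0 h (8.02 to 12.8 CPM). SLC27A4, a fatty acid transport protein, rose by 0.97, 1.12 and 1.07, AGPAT2, the enzyme just before the lipins in triglyceride synthesis, by 0.75, 1.30 and 0.87, and ECI2, an isomerase of beta-oxidation, by 0.70, 0.77 and 0.66.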

How the data were processed

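The data were 24 4sU-seq libraries of U2OS cells, 2 for each of 12 groups of GR construct and dexamethasone time. Per the study's methods and the submitters' processing notes, the authors handled unique molecular identifiers with UMI-tools 1.1.2, trimmed with Trim Galore 0.6.6, aligned to hg38 with STAR 2.7.3a, deduplicated, and counted over exons with featureCounts on GENCODE 39, and the deposited values are raw counts. Symbols came from GENCODE 44 (99.7% of identifiers matched). Here, edgeR 4.0.16 (R 4.3.3) was used with TMM, filterByExpr (minimum count 10, total 15), the quasi-likelihood test over 12 groups (or 3 constructs for levels), and Benjamini-Hochberg adjustment over all genes tested. The fit was checked first on counts simulated with the same spread for all genes and groups and with independent libraries. That check does not cover the larger spread at 0 h or deviations shared by replicates. SE is the log2 fold change over the root of F. DESeq2 1.42.0 and other fits are in the closing section. Other lipid genes were named if called at 3 h in the same direction in all 3 lines, and the 3 genes most like ANGPTL4, LPIN1 and ACSL1 by Pearson correlation. The genes and lists were chosen with earlier results of these data known. Depth was 8106036 to 15820806 counts, and replicates of a group differed 5.61 to 21.0 times more than counting error (chi-square per degree of freedom). The 0 h groups differed most (21, 18.7 and 17.5 in wt, SoF and Ctrl), against 7.56, 6.44 and 5.61 at 3 h. The fit shared its estimate of the spread over all groups, so SEs of changes against 0 h may be too small. The size of this effect was not tested.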

Additional observations from a re-analysis of the deposited data

How the results depend on the processing

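Of 2248 values of the tested genes recomputed under other settings, 2193 kept their side of the threshold, 34 lost the call and 21 gained it. No called value changed sign. In 215 cases a value that was not called did. DESeq2 size factors moved the median of all genes by at most 0.03.

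Counts of called genes among the 9 moved as follows. Without the low-count filter they became 2 for SoF at 2 h (ANGPTL4 added), 1 for SoF at 3 h (ACSL1 lost, adjusted p = 0.0874), 1 for wt from 1 h to 3 h, 1 for SoF against Ctrl at 3 h (PLIN2 in both) and 0 for the SoF against Ctrl level. From 1 h to 3 h in wt, fitting only the wt libraries also gave 1. DESeq2 gave 1 for the level in SoF against wt (LPIN2) and 1 for Ctrl against wt (PPARD), its size factors in edgeR gave 1 for SoF against wt, and an additive time term gave 2 (LPIN1, LPIN2) and 3 (CPT1A, PNPLA2, PPARD). The 0 h libraries alone gave 0 for SoF against Ctrl. For the mean of the 3 lines, DESeq2, its size factors and the fit without the filter each gave 2 in place of 3 at 3 h (PPARD lost), and the fit without the filter 4 in place of 3 at 2 h (ANGPTL4 added). The cause was not tested, and the share of all genes called under these other settings was not computed.

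The level in SoF against Ctrl was refitted without all libraries of replicate 1 or of replicate 2, and PPARD was called in neither fit (-0.53 and -0.34). Leaving out single libraries moved several of the calls within lines, as given above. PLIN2 log2 fold changes at 3 h then ran from 0.76 to 0.92 in wt, 1.18 to 1.79 in SoF and -0.12 to 1.13 in Ctrl. ACSL1 ran from 0.48 to 0.59 in SoF at 3 h. With a library left out, its partner is assumed to vary like the other groups, and fewer samples remain.

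Libraries with the same replicate number deviated together in some groups only (Pearson r from -0.22 to 0.57, median 0.038, above 0.1 in 21 of 66 group pairs). Among the 0 h groups r was 0.4 for wt and SoF, 0.39 for wt and Ctrl and 0.57 for SoF and Ctrl. Biotinylation and pulldown were done in pairs of replicates, but which samples were paired is not stated, and the numbers were not taken as pairs. A replicate block changed none of the counts of called genes among the 9, for example 2 for SoF at 3 h, except that a block within each line gave 1 for wt from 1 h to 3 h (PLIN2).

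Depth limits ANGPTL4 and CPT1A, and 2 libraries per group limit the rest.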
